A study of Arabidopsis thaliana with 6 samples.

Results

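WRKY transcription factors are plant proteins that bind DNA through a domain carrying the conserved amino acids that gave the family its name, followed by a zinc finger. They recognise W boxes, short promoter elements that are common in defence genes and in the promoters of WRKY genes themselves. In seedlings, chitin fragments are sensed at the cell surface by receptor kinases with LysM domains, and MAP kinase cascades below such receptors act on WRKY factors. Of 72 WRKY genes in the RefSeq gene table of Arabidopsis thaliana, 7 lay on a probe set to which the array's annotation gives exactly 1 gene, and these 7 are described here. They were WRKY53, WRKY22, WRKY6, WRKY42, WRKY47, WRKY20 and ZAP1, the last also known as WRKY1, among 13350 genes on such probe sets in all. The other WRKY genes were not analysed here.

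The samples were whole 14-day-old seedlings of the Col 0 ecotype, grown in shaken liquid medium under constant light. In the chitooctaose group, 20 µl of a 0.5 mM stock of chitooctaose, a purified fragment of the fungal wall polymer chitin, brought 10 ml of medium to 1 µM. The water group received 20 µl of water, and both groups were collected 30 min later according to titles and protocols. Each group had 3 arrays, called biological replicates in the series text. That text gives a shorter exposure, and the short descriptions of the chitooctaose arrays name water, so titles and protocols were followed.

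The values are the deposited array intensities on a linear scale, and the median intensity of the 6 arrays lay between 155.7 and 169.2. Intensities under 16, a fixed floor set without an estimate of background, were raised to 16 before log2 was taken. No value of the 7 WRKY genes was at this floor, and all 7 were tested. A gene is said to rise or fall where limma's Benjamini-Hochberg adjusted p over all 22746 tested probe sets was under 0.05. Because the seedlings were taken whole, a change in transcript per cell and a change in the share of cells that hold the transcript cannot be told apart. Setting chitooctaose against water addressed which WRKY transcripts respond at 30 min, from which base level, and which stay flat.

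The test was passed by 3 of the 7 WRKY genes, all of them higher in chitooctaose, and by none that was lower. WRKY53 was 30.2-fold higher in chitooctaose than in water, WRKY22 was 8.68-fold higher and WRKY6 was 4.03-fold higher. WRKY42 and WRKY47 had small positive differences, and WRKY20 and ZAP1 small negative ones. Over all tested probe sets 4.24% rose and 0.805% fell. The median log2 change was 0.18 over the 7 WRKY genes, which is the value of WRKY42, and -0.04 over all tested probe sets. The former does not describe a shift shared by the 7 genes, as 3 rose and the others differed little.

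**Figure D1:**
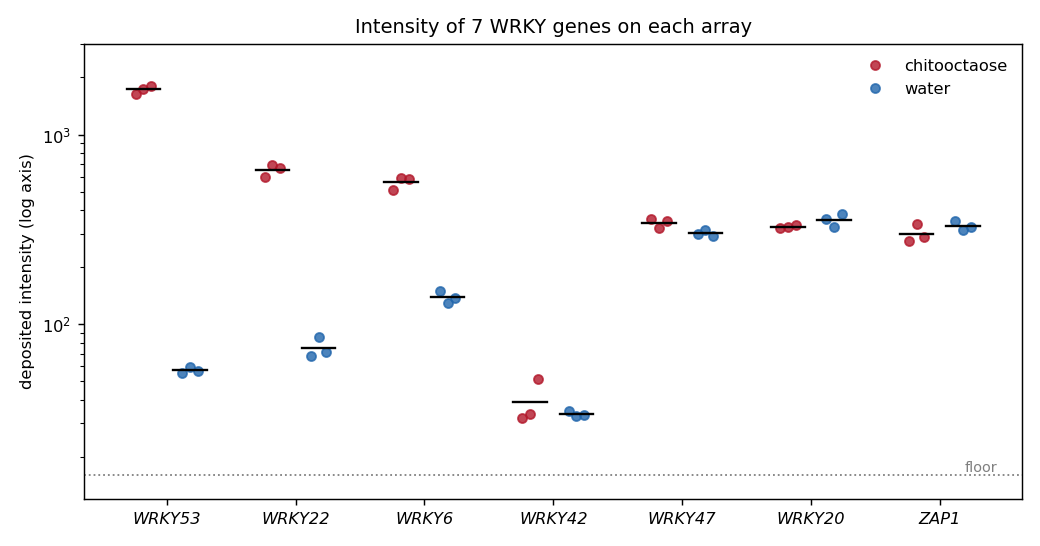
Deposited intensity (log axis) of each of the 7 WRKY genes on the 3 chitooctaose arrays (red, left in each pair) and the 3 water arrays (blue), with group means as black bars and the floor of 16 as a dotted line. Red and blue points are far apart for WRKY53, WRKY22 and WRKY6 and lie close together for the other 4 genes, and heights are comparable within a gene but not between genes.

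WRKY53, a group III WRKY factor known from basal defence and as a regulator of leaf senescence, had the largest change of the 7. Its intensity was 1642.1, 1742.3 and 1810.4 in chitooctaose replicates 1, 2 and 3, against 55.4, 59.5 and 56.9 in water replicates 1, 2 and 3 (locus AT4G23810). Each chitooctaose array was more than an order of magnitude above each water array, and the lowest chitooctaose value was 27.6 times the highest water value. The means were 1732 ± 84.6 in chitooctaose and 57.3 ± 2.08 in water (SD, n = 3 each). The coefficient of variation was thus 4.89% in chitooctaose and 3.63% in water, so the spread between arrays was small beside the difference between the groups. The log2 change was 4.92 (SE 0.07, limma adjusted p = 9.05e-06), with a 95% confidence interval of 27.0-fold to 33.8-fold. WRKY53 ranked 12 by log2 change among all tested probe sets. This rank depends on the floor, which sets the size of rises from the dimmest signals. It was 26 with a floor of 1 and 4 with a floor of 64, which lay above all water values of WRKY53.

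WRKY22, a group IIe factor known to act below the MAP kinase cascade of bacterial flagellin perception, came next. It measured 595.6, 688.8 and 664.0 in the chitooctaose arrays, against 68.2, 86.0 and 71.0 in the water arrays, in the order of replicates 1 to 3 (locus AT4G01250). The groups were well apart, with the lowest chitooctaose value at 6.93 times the highest water value, which came from water replicate 2. The means were 649 ± 48.3 in chitooctaose and 75.1 ± 9.57 in water (SD, n = 3 each). The relative spread was wider in water, at a coefficient of variation of 12.8% against 7.43% in chitooctaose. The log2 change was 3.12 (SE 0.12, limma adjusted p = 6.14e-05), with a 95% interval of 7.09-fold to 10.6-fold.

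WRKY6, a group IIb factor known from senescence, from pathogen defence and as a repressor of the phosphate exporter gene PHO1, rose less. Its intensities were 507.7, 587.6 and 582.5 in the chitooctaose arrays, against 149.7, 129.6 and 137.3 in the water arrays (locus AT1G62300). Every chitooctaose array was above every water array, by 3.39 times at the narrowest. The means were 559 ± 44.7 in chitooctaose and 139 ± 10.2 in water (SD, n = 3 each), and the log2 change was 2.01 (SE 0.09, limma adjusted p = 0.000117). The 95% interval ran from 3.43-fold to 4.72-fold. The 95% intervals of WRKY53, WRKY22 and WRKY6 did not overlap one another, while chitooctaose replicate 1 was the lowest of the 3 chitooctaose arrays for each of these genes.

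**Figure D2:**
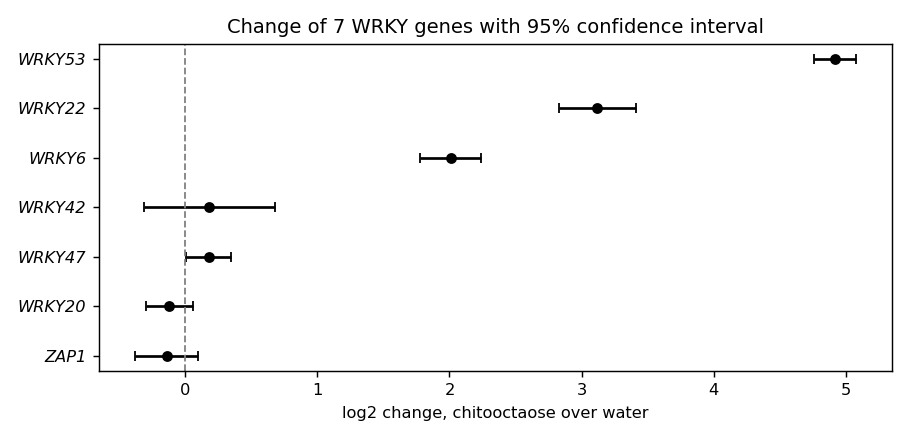
Log2 change of chitooctaose over water for the 7 WRKY genes, with 95% confidence intervals from the limma model as bars and no change as a dashed line. The intervals of WRKY53, WRKY22 and WRKY6 lie far right of 0 and apart from one another, and that of WRKY42 is the widest, from -0.31 to 0.68.

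The 2 other group IIb factors measured did not pass the test. WRKY42, a relative of WRKY6 that is known to control phosphate transport genes, measured 32.2, 33.7 and 51.3 in the chitooctaose arrays, against 35.0, 32.7 and 33.3 in the water arrays (locus AT4G04450). The groups overlapped, and chitooctaose replicate 3 alone stood above all water arrays. The means were 39.1 ± 10.6 in chitooctaose and 33.7 ± 1.17 in water (SD, n = 3 each), with a log2 change of 0.18 (SE 0.20, limma adjusted p = 0.784). Without chitooctaose replicate 3 the log2 change was -0.03 (limma adjusted p = 0.940). This was the dimmest of the 7 probe sets, about 2.11 times the floor in water, and its 95% interval, from 0.806-fold to 1.60-fold, was the widest.

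WRKY47, the other group IIb member, measured 357.1, 319.7 and 347.9 in the chitooctaose arrays, against 299.6, 312.9 and 293.2 in the water arrays (locus AT4G01720). All 3 chitooctaose arrays were above all 3 water arrays, although the nearest pair, both of replicate 2, differed by a factor of only 1.02. Groups that did not overlap were found for 19.2% of all tested probe sets. The means were 342 ± 19.5 in chitooctaose and 302 ± 10.1 in water (SD, n = 3 each). The log2 change was 0.18 (SE 0.07), with an unadjusted limma p of 0.0416 and an adjusted p of 0.325, so it missed the threshold. An unadjusted p under 0.05 was found for 14.0% of all tested probe sets. The 95% interval ran from 1.01-fold to 1.27-fold, and its upper end, like that of WRKY42, lay below the lower end of WRKY6.

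WRKY20 and ZAP1 belong to group I, whose proteins carry a WRKY domain at each end, and neither passed. WRKY20 measured 321.7, 324.9 and 331.6 in the chitooctaose arrays, against 357.4, 327.1 and 380.4 in the water arrays (locus AT4G26640). The chitooctaose arrays were close together and within reach of water replicate 2, so the groups overlapped. The means were 326 ± 5.08 in chitooctaose and 355 ± 26.7 in water (SD, n = 3 each), with a log2 change of -0.12 (SE 0.07, limma adjusted p = 0.573). The 95% interval of the ratio was 0.813 to 1.04.

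ZAP1, one of the earliest described Arabidopsis WRKY proteins and an activator that binds W boxes, measured 275.2, 335.8 and 288.4 in the chitooctaose arrays, against 351.0, 313.1 and 324.7 in the water arrays (locus AT2G04880). Chitooctaose replicates 1 and 3 were below all water arrays and replicate 2 was not. The means were 300 ± 31.8 in chitooctaose and 330 ± 19.4 in water (SD, n = 3 each), and the log2 change was -0.14 (SE 0.10, limma adjusted p = 0.638). The 95% interval of the ratio was 0.769 to 1.07. For WRKY47, WRKY20 and ZAP1 the outermost ends of these unadjusted intervals were 27.0% and -23.1%. For WRKY42 a rise of up to 59.8% lay within the interval. Under other processing settings the log2 interval reached up to 0.40 for WRKY47, against 0.34 here, and down to -0.47 for ZAP1, against -0.38 here.

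The base level of each gene can be read from these data only as brightness on the array, not as transcript amount. In water, the signal of WRKY53 was above that of 24.8% of all tested probe sets, that of WRKY22 above 31.5% and that of WRKY6 above 46.1%. In chitooctaose these shares were 93.2% for WRKY53, 81.0% for WRKY22 and 78.2% for WRKY6. All 3 were therefore among the dimmer part of the array in water and in its brighter part with chitooctaose. WRKY47, WRKY20 and ZAP1 stood above between 65.1% and 69.0% of probe sets in water and between 64.5% and 67.6% in chitooctaose. WRKY42 was dim in both, above 16.4% of probe sets in chitooctaose and 12.9% in water. A low water signal was therefore shared by WRKY53, which rose, and WRKY42, which did not pass, and 7 genes are too few to relate base level to response.

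**Figure D3:**
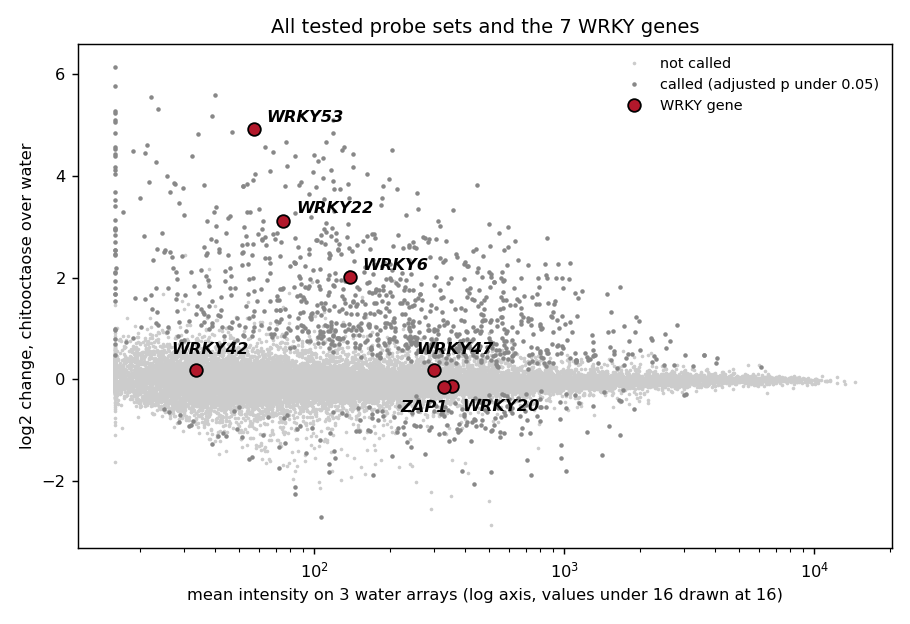
Log2 change of chitooctaose over water against the mean intensity on the 3 water arrays (log axis) for all 22746 tested probe sets, with called ones in dark grey and the 7 WRKY genes in red. WRKY53 and WRKY22 lie among the large rises from dim water signals, and WRKY47, WRKY20 and ZAP1 lie in the band of probe sets without a call.

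The genes whose 6 arrays followed each responding WRKY gene most closely were found by the distance between their log2 values, each taken relative to the water mean of its own probe set, over the 6 arrays and all genes on a named probe set. Since the groups dominate this distance, it mainly picks genes with a rise of the same size. For WRKY53 the nearest were AT5G46295, AT1G35210 and AT1G24140, at distances of 0.36, 0.57 and 0.62 log2 units. AT5G46295 measured 1358 ± 58.8 in chitooctaose and 47.1 ± 6.83 in water (SD, n = 3 each), a 29.0-fold rise. In water AT1G24140 sat at the floor throughout and AT1G35210 did so on 1 array, so their distances depend on the floor.

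For WRKY22 the nearest genes were AT4G29780, AT3G60420 and AT5G52050, at 0.30, 0.33 and 0.36 log2 units. AT5G52050, also known as DTX50, an efflux carrier, measured 327 ± 53.9 in chitooctaose and 40.5 ± 3.28 in water (SD, n = 3 each). For WRKY6 they were AT5G46780, AT3G59080 and AT5G52670, at 0.17, 0.19 and 0.22 log2 units. AT5G46780 was 3.89-fold higher in chitooctaose, close to the 4.03-fold of WRKY6, and measured 855 ± 26.2 in chitooctaose and 220 ± 25.6 in water (SD, n = 3 each).

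The genes beside each WRKY gene were examined over 5 protein-coding genes on each side in the order of the RefSeq gene table. Of these 70 neighbours 36 were on a named probe set, and 2 rose and 1 fell, against 4.24% and 0.805% of all tested probe sets. None of the 16 measured neighbours of the 3 responding genes passed, and 1 of them was at the floor on all 6 arrays. The log2 changes of the 7 measured neighbours of WRKY53 lay between -0.22 and 0.13, those of the 5 of WRKY22 between -0.13 and 0.09 and those of the 4 of WRKY6 between -0.14 and -0.09.

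Both neighbours that rose stood beside WRKY genes that had not passed. AT4G04480, 3 genes from WRKY42, measured 122 ± 12.2 in chitooctaose (SD, n = 3) and sat at the floor on each of the 3 water arrays, so it was at least 7.60-fold higher in chitooctaose relative to that floor (limma adjusted p = 7.07e-05). The size rests on the floor, as its log2 change of 2.93 became 5.61 with a floor of 1 and 0.93 with a floor of 64, both past the threshold. AT4G01700, a chitinase family gene and 3 genes from WRKY47, measured 811 ± 69.7 in chitooctaose and 294 ± 31.6 in water (SD, n = 3 each), a 2.76-fold rise (limma adjusted p = 0.000629). AT2G04920, 4 genes from ZAP1, was barely above the floor, at 18.7 ± 3.09 in chitooctaose, with 1 array at the floor, and 32.8 ± 1.81 in water (SD, n = 3 each). It had a fitted log2 change of -0.81, whose size is not exact (limma adjusted p = 0.0274), a call that was lost in 8 of 12 alternative settings, with adjusted p up to 0.138.

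**Figure D4:**
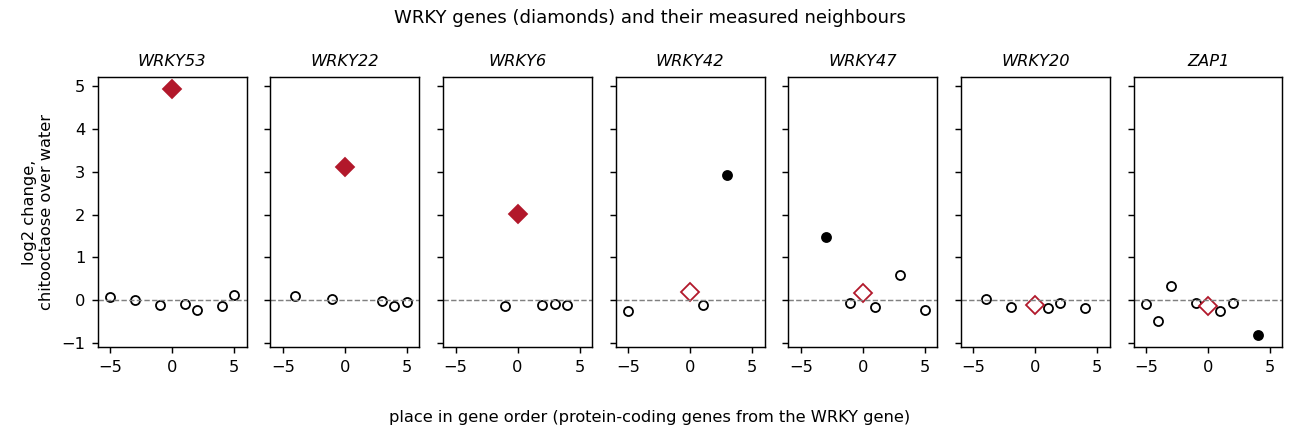
Log2 change of chitooctaose over water for each WRKY gene (red diamond) and its measured neighbours (circles) by place in gene order, filled where the test was passed and open where not. The neighbours of WRKY53, WRKY22 and WRKY6 lie near 0 around a high diamond, and single filled circles stand beside WRKY42, WRKY47 and ZAP1.

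Few genes of the pathways around these factors were on a named probe set. Of 20 genes of chitin perception and the MAP kinase cascade 2 were on one, of which 1 rose, where 4.24% of all tested probe sets did. The other was at the floor on all 3 chitooctaose arrays and on 2 of 3 water arrays, so it had no measurable change and no median is given. BIK1, a cytoplasmic kinase below immune receptors, measured 1472 ± 42.6 in chitooctaose and 669 ± 67.3 in water (SD, n = 3 each), a log2 change of 1.14 (limma adjusted p = 0.000574). Of 25 senescence, phosphate and defence genes tied to these WRKY factors 2 were measured, of which 1 rose and 1 did not pass. Their log2 changes were 1.47 and 0.03, so the median of 0.75 describes neither gene. These 2 genes are too few to set against the 4.24% of all tested probe sets that rose. SAG101, a senescence-associated gene and immune regulator, measured 282 ± 29.8 in chitooctaose and 103 ± 20.6 in water (SD, n = 3 each), a log2 change of 1.47 (limma adjusted p = 0.00616). Only 3 VQ genes, whose products partner WRKY proteins, could be found by name or synonym in the gene table, and none of these was measured. VQ genes that the gene table lists under a locus code alone were not searched for, so measured ones can be missing from this count.

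None of 3 reference genes, 4 shoot markers and 2 root markers passed the test. Of all tested probe sets 4.24% rose and 0.805% fell, so the lack of calls among so few genes does not show that they were stable. Their median log2 changes were -0.02, -0.03 and -0.24, the last from 2 root markers at -0.10 and -0.38. The reference gene PEX4 had a log2 change of 0.04, or -0.03 after quantile normalization. RCA, a shoot marker encoding Rubisco activase, measured 10157 ± 414 in chitooctaose and 10227 ± 120 in water, and the root peroxidase gene AT5G17820 measured 1072 ± 118 in chitooctaose and 1146 ± 117 in water (SD, n = 3 each). Signals of both shoot and root genes were thus present in both groups.

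**Figure D5:**
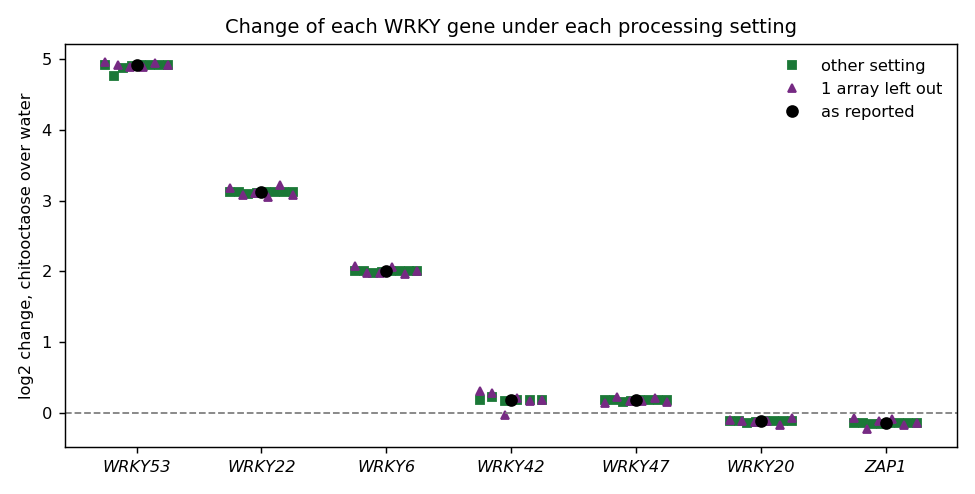
Log2 change of chitooctaose over water for the 7 WRKY genes as reported (black), with single arrays left out (purple triangles) and under other floors, normalizations, variance models, filters and with the replicate block (green squares). The symbols of each gene stay close together, and those of WRKY42 fall on both sides of 0.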

How the data were processed

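Each of 6 Affymetrix arrays received biotinylated cRNA prepared from 7 µg total RNA by the manufacturer's procedure, per the labels. The authors deposited 1 intensity per probe set and array on a linear scale. How probe signals were summarised, background-corrected and scaled is not given in the sources used. Between 163 and 213 intensities per array lay below 0.

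Control probe sets were left out and 22746 probe sets tested. Genes were named by the platform annotation and the RefSeq gene table of assembly TAIR10.1. Exactly 1 gene was given for 13513 probe sets, and 13436 of these matched the table. For a gene on several probe sets the one with the highest mean was used, and each of the 7 WRKY genes had only 1. As the array's build is not named, no coordinates are given, and promoter and protein sequences were not analysed here.

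Intensities were raised to a floor of 16, put on a log2 scale and fitted with limma 3.58.1 (lmFit, eBayes with a mean-variance trend, 2-sided, Benjamini-Hochberg over all tested probe sets) in R 4.3.3. The scripts were tested on simulated arrays. Means ± SD are of deposited intensities, and intervals are unadjusted 95% intervals of the model. The number of arrays limits the precision.

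The WRKY genes, gene lists and naming rule were chosen with earlier results of these data known. All WRKY genes were named, from each list the members that passed or else the brightest one, and the 3 genes most like each WRKY gene that rose. The neighbouring genes were added after the files were seen. Alternatives were other floors, normalizations and variance models, a filter on dim probe sets, a replicate block and leaving out each array.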

Additional observations from a re-analysis of the deposited data

How the results depend on the processing

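The 3 WRKY genes that rose kept their call under all 14 alternatives, and none of the other 4 gained one under any alternative run for them. The log2 change ranged from 4.76 to 4.95 for WRKY53, from 3.05 to 3.22 for WRKY22 and from 1.96 to 2.08 for WRKY6. It ranged from 0.14 to 0.22 for WRKY47, from -0.18 to -0.07 for WRKY20 and from -0.22 to -0.08 for ZAP1. WRKY42 changed sign without chitooctaose replicate 3, to -0.030, and its range with arrays left out was -0.030 to 0.30. With a floor of 64 all 6 of its arrays were at the floor, and it is among the dimmest 40% of probe sets, so both of these settings gave it no value. With arrays left out in turn, 3 WRKY genes rose and 0 fell each time, while the counts over all probe sets were 721 to 835 rises and 86 to 176 falls from a smaller number of arrays. With the replicate block 93 probe sets fell in place of 183, and WRKY53 (limma adjusted p = 0.00187), WRKY22 (0.00196) and WRKY6 (0.00610) kept their calls. The deviations of same-numbered arrays correlated at 0.05, 0.03 and -0.10, and only 1 of the 6 arrays had its highest correlation with the array of its own number, so the numbers were not taken to pair the arrays. Of the 14 other called genes named, 13 kept their call throughout, the exception being AT2G04920. PEX4, which did not pass, changed sign to -0.030 after quantile normalization. RCA, which did not pass, changed sign to 0.016 after quantile normalization and to 0.022 without chitooctaose replicate 1, and ranged from -0.036 to 0.022 with arrays left out. Counting all probe sets with exactly 1 gene changed no list's count. For the WRKY list it could not, as each of the 7 WRKY genes had only 1 such probe set. Low signal limits WRKY42, while no value of the 7 WRKY genes reached the floor of 16. The 3 water values of WRKY53 (55.4, 59.5 and 56.9) were all under the floor of 64. The lowest log2 change of WRKY53, 4.76, came from that floor and was set by it.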
